A study of Mus musculus with 24 samples.

Results

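The miR-106b-25 and miR-106a-363 clusters are 2 paralogous groups of mouse microRNAs (miRNAs). Their 7 members were found by name among the non-control spots of the Agilent array, out of 566 mouse miRNAs measured, with star strands left out. The array names mmu-miR-106b, mmu-miR-93 and mmu-miR-25 make up the first cluster, and mmu-miR-106a, mmu-miR-18b, mmu-miR-20b and mmu-miR-363 make up the second; the prefix for mouse is left out from here on. Pools of commercially available total RNA from mouse tissues were compared. The gonads of both sexes (testicle and ovary) and embryos of 10 to 12 days went into Reference 1, whereas lung, heart and liver went into Reference 2, with every tissue of a pool contributing the same amount. Each reference is represented by 2 Agilent samples, labelled with Cy3 in one color, and all 4 arrays lay on a single slide. The study hybridized more arrays than these, set 1 aside for poor quality and drew the 2 of each reference at random. Both samples of a reference came from 1 pool of RNA, and the p-values therefore measure technical spread rather than spread between animals. Strain, sex and animal age other than that of the embryos were not given in the sources used here. A tissue's own share of a signal cannot be read from a pool, and fewer cells of a type cannot be told apart from less miRNA per cell.

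The clusters belong to the miR-17 family of polycistrons, in which several miRNAs are cut from a shared primary transcript. The miR-106b-25 cluster lies within Mcm7, a gene for a subunit of the replicative DNA helicase that is transcribed in dividing cells under the E2F factors. The miR-106a-363 cluster lies on the X chromosome, and the miR-17-92 cluster, the best known of the paralogs, on another chromosome. Members with the miR-17 seed are known for holding back the cell cycle inhibitor Cdkn1a, and those with the miR-25 seed for acting on the pro-apoptotic gene Bcl2l11.

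The mature sequences are shown because the members fall into 3 groups by their seeds and most of them, though not miR-363, differ from a paralog by few bases. All 7 members matched an entry of RefSeq (build GRCm38.p6), and capitals mark the seed, bases 2 to 8 from the 5′ end.
miR-106b: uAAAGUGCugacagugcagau
miR-93: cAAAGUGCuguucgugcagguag
miR-106a: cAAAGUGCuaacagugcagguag
miR-20b: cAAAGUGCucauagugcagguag
miR-18b: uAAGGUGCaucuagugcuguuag
miR-25: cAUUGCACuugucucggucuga
miR-363: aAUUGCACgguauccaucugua
The members of the first cluster lie on the minus strand of chromosome 5, in the order miR-106b (chr5:138165787-138165807), miR-93 (chr5:138165574-138165596) and miR-25 (chr5:138165332-138165353). Those of the second lie on the minus strand of the X chromosome, in the order miR-106a (chrX:52742541-52742563), miR-18b (chrX:52742381-52742403), miR-20b (chrX:52742159-52742181) and miR-363 (chrX:52741697-52741718). The X-linked cluster has 6 hairpins in 875 bases. Of these, Mir19b-2 and Mir92-2 give the same mature miR-19b and miR-92a as the miR-17-92 cluster, so the array cannot assign those signals to a cluster.
Relatives from the miR-17-92 cluster are given for comparison. They do not include the closest relative of miR-363 among those compared, miR-367, which shares 14 of 22 bases with it.
miR-17: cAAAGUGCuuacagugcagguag
miR-20a: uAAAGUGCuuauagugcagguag
miR-18a: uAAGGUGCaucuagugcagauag
miR-92a: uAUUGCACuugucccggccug
miR-106a and miR-17 have 22 of 23 bases in common and differ by the substitution A10U. Here the member's base is given first and positions are counted from 1 at the 5′ end. miR-20b and miR-20a differ by C1U and C10U, and miR-18b and miR-18a by U18A and U20A. miR-25 and miR-92a have 18 of 21 compared bases in common (C1U, U14C and U18C). In contrast, miR-25 and miR-363, which have the same seed, share 9 of 22, and miR-363 and miR-92a share 10 of 21. The names on the array carry no arm, and each was assigned to the arm known as its guide strand.

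Each member had 20 spots per array, from 2 probes of 10 spots, except miR-18b, which had 4 probes of 5 spots. No spot was saturated. The level of a miRNA was the median over its spots of the log2 median signal after cyclic lowess, without background subtraction, as in the methods of the study, and differences of dim miRNAs are therefore understated. The references were compared with limma at a Benjamini-Hochberg adjusted p under 0.05 over all 566 miRNAs, and a difference is the mean log2 signal of Reference 1 minus that of Reference 2. Of all mouse miRNAs, 58.1% passed the test, 29.9% higher and 28.3% lower in Reference 1, with a median difference of -0.0069. The split of 169 higher and 160 lower became 178 and 320 with median centering, 164 and 73 with no normalization, and 33 and 159 with the processed signal scaled to the 75th percentile of all probes. A miRNA was called well above background in a sample where at least 1 of its spots was so marked by the scanner software. Between 2913 and 4183 of the spots had that mark on an array, with fewer on both Reference 2 arrays. Markers of the pooled tissues followed the labels. All 5 for liver, heart and lung or vessel were lower in Reference 1, among them the hepatocyte miRNA miR-122 at -2.50, and all 6 for testis, ovary and embryo were higher, among them miR-34c of testis germ cells at 2.07 (miR-122 and miR-34c, adjusted p = 1.57e-28 and 1.04e-24 from limma). All 4 blood cell markers were lower in Reference 1, by -2.44 to -1.19. The part of blood cells, or of any single tissue, in the values of the clusters was not tested.

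Of the 7 members, 3 were higher in Reference 1 (miR-20b, miR-25 and miR-93), 1 was lower (miR-363) and 3 did not pass the test. The share of 3 in 7 higher stood beside the 29.9% of all miRNAs, and that of 1 in 7 lower beside 28.3%. Among miRNAs above background in at least 1 sample, 3 of 5 members were higher, beside 136 of all 289. The median difference over the members was 0.014, beside -0.0069 over all miRNAs. The members well above background in all 4 samples were miR-106b, miR-93, miR-25 and miR-20b. miR-106a was so in Reference 1 alone, and miR-18b and miR-363 in no sample.

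In the miR-106b-25 cluster, miR-25 and miR-93 were higher in the gonad and embryo pool and miR-106b did not pass the test. miR-25, whose seed is that of miR-92a, had normalized log2 signals of 7.81 and 7.77 in Reference 1 and 7.45 and 7.48 in Reference 2. Both Reference 1 samples lay above both Reference 2 samples. The difference was 0.32 (standard error 0.045, 95% interval 0.23 to 0.42, adjusted p = 2.19e-07 from limma), or 1.25-fold on this scale.

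miR-93, which has the miR-17 seed, had log2 signals of 7.34 and 7.30 in Reference 1 and 7.12 and 7.10 in Reference 2. The groups did not overlap here either. How many of all miRNAs had groups without overlap was not counted, while 58.1% of all miRNAs passed the test. The difference was 0.21 (standard error 0.042, 95% interval 0.12 to 0.29, adjusted p = 9.99e-05 from limma). It turned to -0.076 (adjusted p = 0.0980 from limma) when outlier-flagged spots were left out.

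miR-106b, the first hairpin of the cluster, had log2 signals of 8.79 and 8.93 in Reference 1 and 8.90 and 8.85 in Reference 2. One Reference 1 sample lay below both Reference 2 samples and the other lay above both. The difference was -0.016 (standard error 0.051, 95% interval -0.12 to 0.088, adjusted p = 0.811 from limma). Its call depended on the processing. It was called lower in the deposited values, at -0.16 (adjusted p = 0.00571 from limma). It was also called lower with the processed signal scaled to all probes, at -1.64 (adjusted p = 1.19e-07 from limma). Under that scaling the median of all miRNAs tested was -1.42. Relative to that median, miR-106b lay at -0.22. It was called higher in the mean of its probe medians, at 0.10 (adjusted p = 0.0280 from limma), with no normalization, at 0.13 (adjusted p = 0.00392 from limma), and with the total gene signal, at 0.23 (adjusted p = 0.000165 from limma). Although the hairpins of the 3 miRNAs lie within 498 bases of each other, their differences ranged from -0.016 to 0.32. The 4 pairings of a Reference 1 with a Reference 2 sample gave -0.11 to 0.081 for miR-106b, 0.18 to 0.23 for miR-93 and 0.29 to 0.36 for miR-25. These ranges did not overlap, although the differences between the miRNAs were not themselves tested. The ranges also leave out the spread between probes. The 2 probes of miR-93 gave 0.51 and -0.11, and those of miR-106b gave 0.27 and -0.067.

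**Figure D1:**
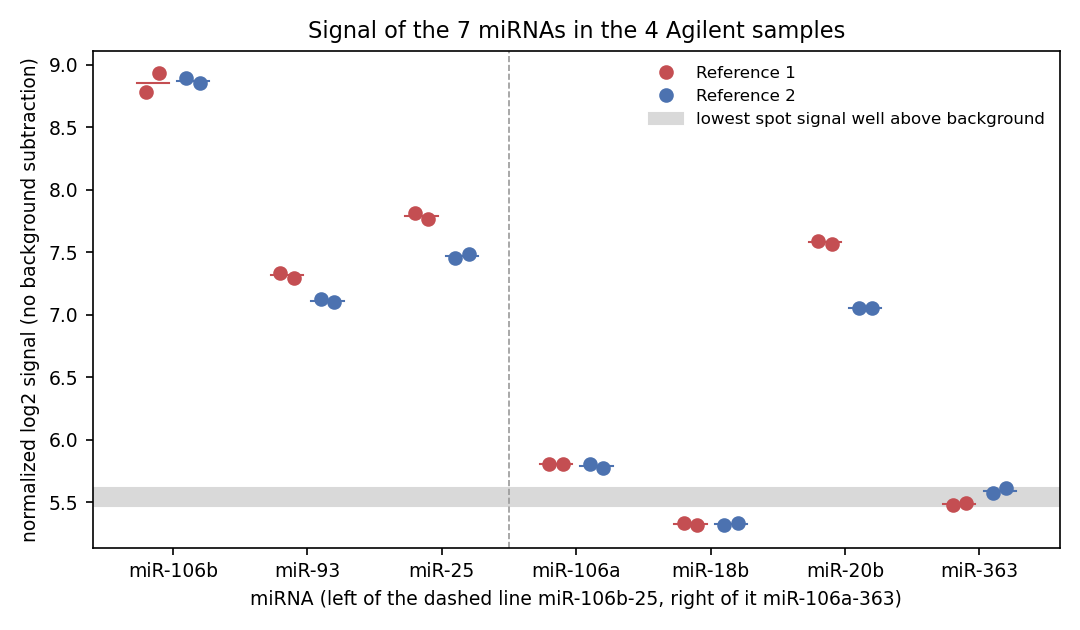
Normalized log2 signal of the 7 miRNAs (y axis, without background subtraction) in each Agilent sample, with 2 points per reference and short lines at the means of the references. The gray band spans the lowest spot signals well above background on the 4 arrays (5.47 to 5.61). The points of miR-20b, miR-25 and miR-93 separate by reference, as do those of miR-363, which was well above background in no sample. The points of miR-106b, miR-106a and miR-18b overlap.

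In the miR-106a-363 cluster, miR-20b was higher in Reference 1, and the remaining 3 members lay near the background. miR-20b, which has the miR-17 seed, had log2 signals of 7.59 and 7.56 in Reference 1 and of 7.0504 and 7.0505 in Reference 2. All Reference 1 values lay above all Reference 2 values. The difference of 0.53 (standard error 0.043, 95% interval 0.44 to 0.62, adjusted p = 3.57e-12 from limma) was 1.44-fold on this scale. The raw median signals were 228 and 229 scanner units in Reference 1 and 113 and 116 in Reference 2, on arrays with a median raw signal of 43.5 to 47 over all miRNA spots. miR-20b was lower only when the processed signal was scaled to the 75th percentile of all probes, at -0.36, and under that scaling the median of all miRNAs tested was -1.42.

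miR-106a, the first hairpin of this cluster, was well above background on 20 of 20 spots in each Reference 1 sample and on 0 of 20 in each Reference 2 sample. Its raw median signals were 66 and 64 scanner units in Reference 1 and 47 and 48 in Reference 2. After cyclic lowess these became 5.81 and 5.80 against 5.80 and 5.78 on the log2 scale. The separation in the raw signals was thus absent from the normalized values, whose difference was 0.014 (standard error 0.030, 95% interval -0.047 to 0.075, adjusted p = 0.726 from limma). The background-subtracted processed signals of the scanner software were 20.6 and 22.1 units in Reference 1 and 2.90 and 1.75 in Reference 2. On that signal, scaled to the 75th percentile of detected probes, the log2 difference was 3.04 (adjusted p = 2.65e-07 from limma), and with no normalization of the spot medians it was 0.45 (adjusted p = 1.24e-12 from limma). Over all mouse miRNAs, 97 were above background in Reference 1 alone and 22 in Reference 2 alone.

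miR-363, the last hairpin of the X-linked cluster, was lower in Reference 1 by the test although none of its spots was well above background in any sample. Its log2 signals were 5.47 and 5.49 in Reference 1 and 5.57 and 5.61 in Reference 2. The test gave -0.11 (standard error 0.026, 95% interval -0.16 to -0.057, adjusted p = 0.000507 from limma), and its raw medians of 43.5 to 48.8 units stood beside array medians of 43.5 to 47 units. miR-363 did not pass the test with no normalization (-0.090, adjusted p = 0.387 from limma) or with the total gene signal of the scanner software (-1.52, adjusted p = 0.0694 from limma).

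miR-18b, a close relative of miR-18a, had log2 signals of 5.34 and 5.32 in Reference 1 and 5.32 and 5.33 in Reference 2. The values of the references overlapped, and the difference was 0.0011 (95% interval -0.037 to 0.039, adjusted p = 0.964 from limma). Its background-subtracted signals were below 0 in all 4 samples, from -5.58 to -3.20 units. Any difference in miR-18b was not detectable at this signal.

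The probes of one miRNA did not all give the same difference. For miR-93, the brighter probe had log2 signals of 8.31 and 8.30 in Reference 1 and 7.82 and 7.77 in Reference 2, whereas the dimmer probe had 6.34 and 6.33 against 6.48 and 6.40. The first gave a difference of 0.51 and the second -0.11, and in both cases the groups did not overlap. With 10 spots on each probe, the median over the 20 spots lay between the probes rather than on either. In raw signal, before normalization, both miR-93 probes were higher in Reference 1, at 361 and 365 against 197 and 191 units for the brighter and 99 and 97 against 73.3 and 70.5 units for the dimmer.

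For miR-106b the brighter probe gave 0.27 (9.46 in both Reference 1 samples against 9.18 and 9.20) and the dimmer probe gave -0.067 (8.44 and 8.48 against 8.54 and 8.50). The brighter miR-106b probe thus separated the references, in the direction of miR-93 and miR-25, while the value over all spots did not. Tested with only the brighter probe of each miRNA, a choice made after the data were seen, miR-106b was higher in Reference 1 (adjusted p = 4.12e-06 from limma). With only the dimmer probes, it did not pass (adjusted p = 0.217 from limma) and miR-93 was lower at -0.11 (adjusted p = 0.0281 from limma).

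For miR-25 the probes gave 0.65 and 0.12, and for miR-20b 0.69 and 0.39, so that each probe of these 2 miRNAs lay above 0. The brighter probe gave the greater difference for all 4 members above background in every sample. Of the 156 mouse miRNAs above background in all 4 samples, 17 had probes on both sides of 0, and miR-106b and miR-93 were 2 of them. The difference without normalization was also greater for the brighter probe of these 4 members, at 0.33 and 0.18 for miR-106b, 0.90 and 0.45 for miR-93, 0.88 and 0.53 for miR-25 and 1.16 and 0.81 for miR-20b. Without normalization all 8 of these probes were thus higher in Reference 1. The share of all probes that were so was not counted. Of the 566 miRNAs tested without normalization, 164 were called higher and 73 lower.

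**Figure D2:**
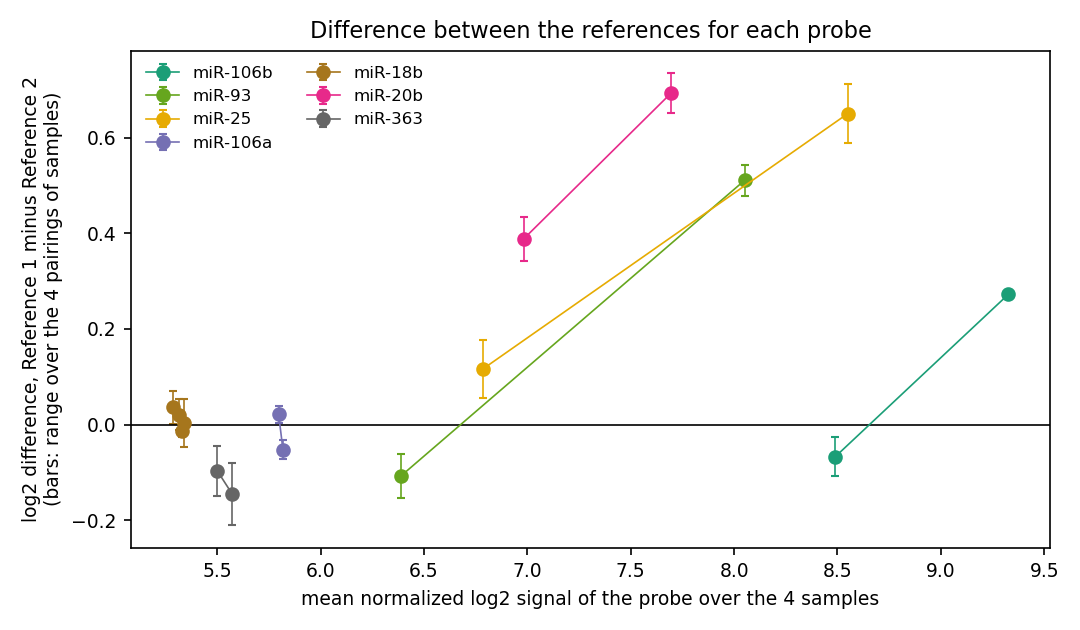
Log2 difference between the references for each of the 16 probes of the 7 miRNAs (y axis) against the mean normalized log2 signal of the probe (x axis), with bars for the range over the 4 pairings of samples and lines joining the probes of one miRNA. For miR-106b, miR-93, miR-25 and miR-20b the brighter probe lies higher, and the lines of miR-106b and miR-93 cross 0.

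The miR-17-92 cluster was measured as the other paralog. Of its 6 miRNAs, 5 were higher in Reference 1 and miR-17 did not pass the test, with a median difference of 0.51. Beside this stood 29.9% of all miRNAs, and 136 of the 289 above background in at least 1 sample. The 5 include miR-19b and miR-92a, whose signals the array cannot assign to a cluster. miR-20a differed by 1.03 (adjusted p = 5.26e-18 from limma), above each of the 7 members in the reported values. The gap was not tested. The miR-17-92 miRNAs were not compared under the other processing settings, so this ranking covers the reported values alone. With the total gene signal, the members that gave a value ran from -1.52 for miR-363 to 2.36 for miR-106a. miR-19b differed by 1.33 (adjusted p = 5.37e-21 from limma), and its mature sequence is also encoded in the miR-106a-363 cluster. miR-20b and miR-20a, which differ by 2 bases, thus had differences of 0.53 and 1.03, with pairings of samples from 0.51 to 0.54 and from 0.97 to 1.08. The pair did not overlap in the reported values. This gap was not itself tested, and it was not compared under the other processing settings. The probes were designed from the sequences, and binding of a probe to the relative of its target was not tested here. miR-18a was higher by 0.41 (adjusted p = 2.52e-11 from limma), with 10 of its 20 spots above background in each Reference 2 sample, while miR-18b was below background throughout. miR-92a, which like miR-19b is encoded in both clusters, was higher by 0.61 (adjusted p = 9.46e-13 from limma).

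miR-106a and miR-17, which differ by 1 base, gave nearly the same values. miR-17 had normalized log2 signals of 5.82 and 5.84 in Reference 1 and 5.81 and 5.86 in Reference 2, and raw medians of 67.3 and 65.8 against 46.8 and 49.3 units. Like miR-106a, miR-17 had all 20 spots above background in each Reference 1 sample and 0 in each Reference 2 sample. One of the miR-17 probes carries the names of both miR-17 and miR-106a in the annotation of the array, and 26 of the 1672 probes for mouse miRNAs name more than 1. The other miR-17 probe and both miR-106a probes name a single miRNA, and whether they bind the relative of their target was not tested.

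**Figure D3:**
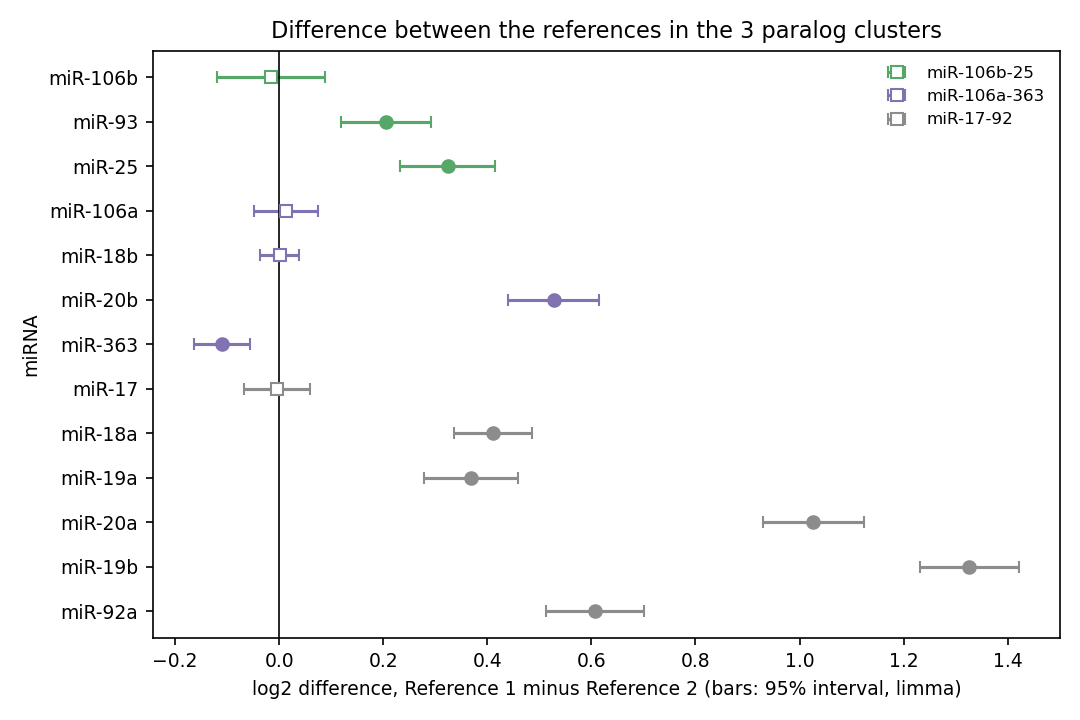
Log2 difference between the references (x axis, Reference 1 minus Reference 2) with its 95% interval for the members of the miR-106b-25, miR-106a-363 and miR-17-92 clusters, with miR-19b and miR-92a, which the X-linked cluster also encodes, drawn under miR-17-92. Colors mark the clusters, filled circles passed the test and open squares did not, and the intervals of miR-20a and miR-19b lie above those of all other miRNAs shown.

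The star strands on the array, the less abundant arm of a hairpin, were miR-106b*, miR-93* and miR-20b*. None of the 3 passed the test, with differences of -0.0035 to 0.027, and a single spot of miR-20b* in 1 sample was the only one well above background. Other miRNAs with the seed of miR-25 and miR-363 were miR-92b, miR-32 and miR-367. No spot of these 3 was well above background in any sample, and miR-32 passed the test at -0.081 (adjusted p = 0.00195 from limma).

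Outside the 3 clusters and their seeds, 147 miRNAs were above background in all 4 samples. The per-sample median of miR-106b, miR-93 and miR-25, taken before centering, was the value of miR-25 in all 4 samples. The profile used for that cluster is therefore that of miR-25 alone. Nearest to it, with each profile centered on its own mean, were miR-128, miR-335-5p and let-7g. Their root mean square distances were 0.026, 0.038 and 0.039 log2 units. Nearest to miR-20b, the one usable member of the X-linked cluster, were miR-296-5p, let-7f and miR-148a, at 0.024, 0.032 and 0.039. With 4 samples in 2 groups, such a distance reflects mainly the size of the difference, which was 0.33 for miR-128 and 0.50 for miR-296-5p.

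The direction of miR-25 and miR-20b relative to all miRNAs did not turn under other processing. After the median over all miRNAs tested in each setting was subtracted, miR-20b lay between 0.40 and 1.06 and miR-25 between 0.13 and 0.68. miR-93 lay between -0.099 and 0.72, and below 0 only when flagged spots were left out and with its dimmer probe alone. miR-106b lay on either side of 0, from -0.22 to 0.28. miR-106a ran from -0.044 with the brighter probes to 2.90 with the processed signal.

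**Figure D4:**
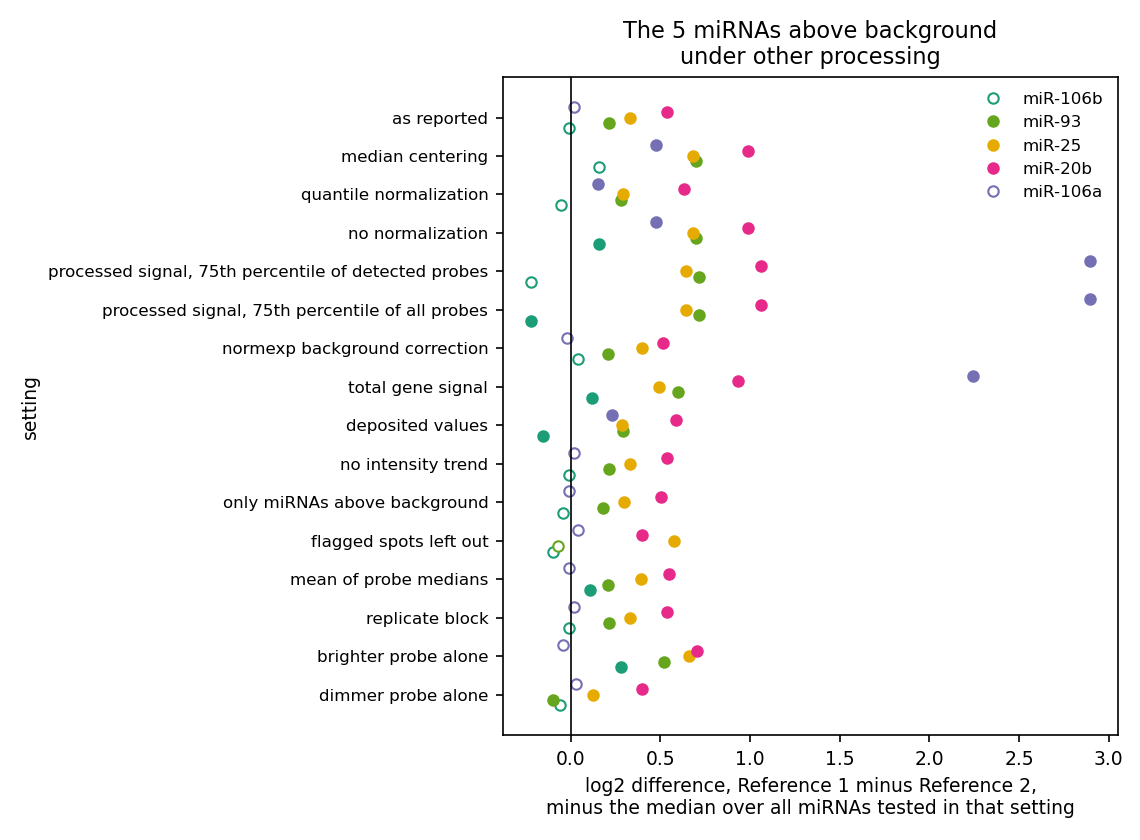
Log2 difference between the references relative to the median over all miRNAs tested in the same setting (x axis) for the 5 members above background in at least 1 sample, under each processing setting (y axis). Filled points had an adjusted p under 0.05 in limma for the difference before the median was subtracted, and miR-106a lies near 0 in the reported values and near 2.90 with the processed signal.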

How the data were processed

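The authors scanned the Agilent arrays with Agilent Feature Extraction 9.5.3.1 and deposited spot intensity values, not yet normalized. They also deposited log2 values per miRNA after cyclic lowess, and over 560 shared miRNAs the Pearson correlations with the values recomputed here were 0.999 or more. The medians of the deposited columns, 5.48 to 5.49, show that these values were not centered on 0. The deposited Exiqon, NCode and LC Sciences files were not used here, because their probes were not paired with miRNA names.

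The median signals of all non-control spots, outlier-flagged spots included (at most 2.71% per array), were put on the log2 scale with no pseudocount, brought together by cyclic lowess between all pairs of the 4 arrays, and summarized per miRNA by the median. The test was limma 3.58.1 in R 4.3.3, with the prior variance trended on intensity. Its code was run on simulated data with normal noise. The differences set there were all larger than those of miR-93, miR-25 and miR-363, so the run does not cover differences of that size. Precision is limited by having 2 arrays for each reference. Alternatives covered normalization, background correction, spot summary, filtering, the replicate block and leaving out each sample.

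Named miRNAs were the 7 members, their star strands, the miR-17-92 cluster, seed mates and, for each cluster, the 3 nearest profiles, taken outside the 3 clusters and their seeds. The members, lists and rules were chosen with earlier results of these data known.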

Additional observations from a re-analysis of the deposited data

How the results depend on the processing

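Across the 7 members, the number called higher in Reference 1 was 3. It was 4 with median centering, quantile normalization, the processed signal of detected probes, the deposited values, the mean of probe medians and brighter probes. Of all miRNAs tested, 27.6% to 42.2% were higher in these settings, beside 29.9% as reported. The number was 2 without flagged spots (28.8% of all miRNAs) and with the dimmer probes (23.1%). It was 5 with the total gene signal (44.4%) or without normalization (29.0%). It was 1 when the processed signal was scaled to the 75th percentile of all probes (15.6%). The number called lower was 1, where 160 of all 566 miRNAs were lower. It was 2 with median centering (320 of 566), with the dimmer probes (130 of 566) and in the deposited values (194 of 560). It was 5 when the processed signal was scaled to all probes (159 of 211). It was 0 without normalization (73 of 566) and with the total gene signal (85 of 216). It was also 0 when only miRNAs above background were tested (120 of 289), a filter that removes miR-363. Over all miRNAs, 329 differed, against 498 with median centering, and 166, 192 and 181 with the processed signal (detected and all probes) and the total gene signal, where 211, 211 and 216 were tested. Without 1 sample, 282 to 325 differed, with 3 members higher and 1 lower each time. miR-18b gave no value with the processed and total gene signals, which were below 0.

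For miR-106b the difference of -0.016 became 0.13 with no normalization, 0.23 with the total gene signal, 0.10 with the mean of probe medians and 0.27 with the brighter probe, all called higher, -1.64 with the processed signal scaled to all probes and -0.16 in the deposited values, both called lower, and 0.095 with median centering and 0.034 after normexp, neither called. For miR-106a, 0.014 became 0.41 with median centering, 0.13 after quantile normalization, 0.45 with no normalization, 2.36 with the total gene signal, 3.04 and 1.48 with the processed signal (detected and all probes) and 0.22 in the deposited values, all called higher, and -0.028 after normexp, -0.016 with the mean of probe medians and -0.053 with the brighter probe. For miR-18b, 0.0011 became -0.076 with median centering (called lower), -0.0078 after quantile normalization, -0.037 with no normalization, -0.0029 after normexp and -0.00066 in the deposited values. miR-93 turned to -0.076 without flagged spots, -0.11 with the dimmer probe and -0.70 with the processed signal scaled to all probes. Under that last scaling miR-25 was -0.78 and miR-20b -0.36, while the median of all miRNAs tested was -1.42. miR-363 no longer passed with no normalization (-0.090) or the total gene signal (-1.52). The causes were not tested. The brighter and dimmer probe settings were chosen after the data were seen.

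Without 1 sample, differences ranged from -0.078 to 0.058 for miR-106b, 0.18 to 0.26 for miR-93, 0.29 to 0.35 for miR-25, 0.0094 to 0.068 for miR-106a, -0.0047 to 0.010 for miR-18b, 0.50 to 0.56 for miR-20b and -0.13 to -0.12 for miR-363, and no call of a member was gained or lost. The samples of the references share only a number, and deviations of same-numbered samples correlated at 0.061. With the replicate block 328 miRNAs differed, and the block changed no call of a member. The count of 4 members above background in all samples was the same when a larger share of the spots had to pass and under the study's present rule. The signal over background limits miR-106a, miR-18b and miR-363, which were not well above background in at least 1 reference.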
